A study of Rattus norvegicus with 418 samples.

Results

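The proteasome subunit genes are the genes for the fixed subunits of the 20S core (the alpha and beta rings) and of the 19S regulatory particle (6 ATPases, the other base subunits and the lid), together with the activator genes Psme3 and Psme4. They were listed by gene symbol, without use of the measured values. Of 33 listed genes, 31 had a probe set of their own among 14217 genes on the array. The probe set of Psmb6 also carried the symbol Psmb6l1, and those of Psme3 also carried Aoc3 and G6pc1, so neither gene was measured alone. The inducible subunit genes Psmb8, Psmb9 and Psmb10 form the immunoproteasome and were kept apart from the 31.

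Liver RNA was hybridised on 418 arrays, each from the left lateral lobe of 1 fasted male F344/N rat of 10 to 12 weeks. Rats received 1 dose and were killed 6, 24 or 48 h later. Given by gavage in corn oil were 1,2-dichlorobenzene and 1,4-dichlorobenzene (15, 150 and 1500 mg/kg), bromobenzene (25, 75 and 250 mg/kg), monocrotaline (10, 30, 50 and 300 mg/kg), N-nitrosomorpholine (10, 50 and 300 mg/kg) and thioacetamide (15, 50 and 150 mg/kg). Given by intraperitoneal injection in PBS were galactosamine (25, 100 and 400 mg/kg) and diquat dibromide (5, 10, 20 and 25 mg/kg). Monocrotaline doses differed by time: 300 mg/kg was given for the 6 h kill only, and 30 mg/kg for the 24 h kill only. There were 318 dosed rats in 74 groups and 100 vehicle rats, one vehicle group per compound and time. Groups held 4 rats, or 6 for diquat dibromide and its vehicle, except for 2 rats each in the 6 h thioacetamide vehicle group and in the 48 h group of 1500 mg/kg 1,2-dichlorobenzene. Each rat carried a necrosis score from 0 to 4. The group labelled monocrotaline 30 mg/kg had a score of 4 in all 4 rats, whereas rats at 50 mg/kg scored 0 or 1 at the same time.

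As background, the 26S proteasome is the protease that degrades proteins tagged with ubiquitin. Its 20S core is a barrel of alpha and beta rings in which Psmb5, Psmb6 and Psmb7 encode the proteolytic subunits. The 19S particle binds the ubiquitin chain, removes it, unfolds the substrate and feeds it into the core. In mammals the transcription factor NRF1 (Nfe2l1) raises the subunit genes together when proteasome activity falls short, and NRF2 (Nfe2l2) raises several of them under electrophile stress, both through antioxidant response elements. Interferon gamma replaces the 3 proteolytic subunits with those encoded by Psmb8, Psmb9 and Psmb10, which favours peptides for antigen presentation.

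Promoters of 300 bases (RefSeq, GRCr8) were given for 29 of the 33 genes. The core of the antioxidant response element, TGACNNNGC searched on both strands, was found in 7 of the 29 (24.1%), against 12.1% of all promoters of that length in the table and 14.1% of those of genes on the array. Matches whose surroundings lie before the transcription start are shown, since they fall in proteolytic subunits of the core (Psmb5, Psmb6), a beta ring neighbour (Psmb2), the activator Psme4 and the base subunit Psmd1. Of the 74 dosed groups, Psmb5 was called higher in 23 and lower in 1, and Psmb2 higher in 19 and lower in 1. Psme4 was called higher in 13 and lower in 10, and Psmd1 higher in 6 and lower in 15, while Psmb6 was not measured alone. Psma3 and Psmd3, the other genes with a match, were called higher in 16 and 23 and lower in 2 each. Of genes without a match, Psmd13 was called higher in 28 and lower in 0, and Psmc6 higher in 4 and lower in 8. These tallies are not centred, and no share over all genes was computed for them. A link between matches and calls was not tested. Capitals mark the core, and in Psme4 it reads on the opposite strand.
Psmb5, chr15:32047420-32047449, minus strand: cgtgaagctgTGACGTCGCggcgttgcccg
Psmb6, chr10:55737854-55737883, plus strand: ctaaagagagTGACGGAGCgctttacgacc
Psmb2, chr5:144254980-144255009, plus strand: cccgcgccaaTGACCGGGCggtcgcatatc
Psme4, chr14:108706578-108706607, plus strand: ggagaaagccGCTGGGTCAcctcctcgcct
Psmd1, chr9:94157796-94157825, plus strand: accagatctaTGACCTCGCgagaattataa

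The CCAAT box (CCAAT) was found in 15 of 29 promoters (51.7%, against 37.5% of all promoters), and the heat shock pair GAANNTTC in 2 (6.9%, against 8.59%). The core of the interferon-stimulated response element, a pair of GAAA repeats with any 2 bases between them on either strand, was found in 3 of the 29 (10.3%, against 3.92%) and in 2 of the 3 immunoproteasome promoters, those of Psmb8 and Psmb10. The upstream match of Psmb10 is shown because Psmb10, an interferon-inducible gene, was lower after 1500 mg/kg 1,2-dichlorobenzene, where all 31 constitutive members were higher.
Psmb10, chr19:50743346-50743375, minus strand: aagcaaaggcGAAAGTGAAAgagaagatgc
A match of letters is a description of the sequence and not a binding site.

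Levels are given as log2(signal + 16) and changes as differences of their means (log2 change), dosed minus vehicle of the same compound and time. A gene was called when limma's Benjamini-Hochberg adjusted p over all 14217 genes was under 0.05. In vehicle rats the mean level of each of the 31 genes lay between 10.2 and 13.8, well above the offset. The arrays were scaled to one trimmed mean, and array medians ran from 6.53 to 7.78. Many counts are therefore also given after each array was centred on its median (centred count). Where no centred count is printed, centring may still have changed the count. All arrays were kept, since replicate arrays correlated at 0.847 or more across genes (Pearson's r, median 0.95). The 7 hepatocyte markers summed to a signal of 185000 to 311000 in every rat of the 24 h comparisons below, as the tissue label has it, and no marker of another liver cell type was under 16 in all of these arrays. A sum follows its brightest genes, and genes of a list could go opposite ways. Over 9 comparisons at 24 h, the macrophage markers Lyz2 and Cd68 were higher in 7 and 5, but Clec4f and Adgre1 lower in 8 and 6. Of the stellate cell markers Des was higher in 7, but Lrat and Col3a1 were lower in 7 each. Of the hepatocyte markers Cps1 was lower in 6 and Hnf4a in 4, while Tat was higher in 3 and Apoa1 in 2. In 3 of the 24 h comparisons 1 hybridisation day held at least 2 rats of both groups. Within that day 31 genes were higher after 1,2-dichlorobenzene, 23 after bromobenzene (2 dosed rats) and 17 after monocrotaline labelled 30 mg/kg. For 1,2-dichlorobenzene and monocrotaline labelled 30 mg/kg that day held all 4 dosed and all 4 vehicle rats. In the remaining comparisons, 1,4-dichlorobenzene among them, no day held 2 rats of both groups, so no comparison within a day could be made.

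Of the 9 comparisons with vehicle at 24 h (the highest labelled dose of each compound, and both monocrotaline groups), 1,2-dichlorobenzene gave the largest median rise. After 1500 mg/kg all 31 subunit genes were higher at that time (22.3% of all genes were called higher), with a median log2 change of 0.97 and a range of 0.39 to 1.62. In all 31 genes every dosed rat lay above every vehicle rat, which was the case for 21.7% of all genes. The rise took in every part of the particle, with a median change of 0.81 in the alpha ring, 0.94 in the beta ring, 0.99 in the ATPases and 1.29 in the lid. The centred count was also 31.

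**Figure D1:**
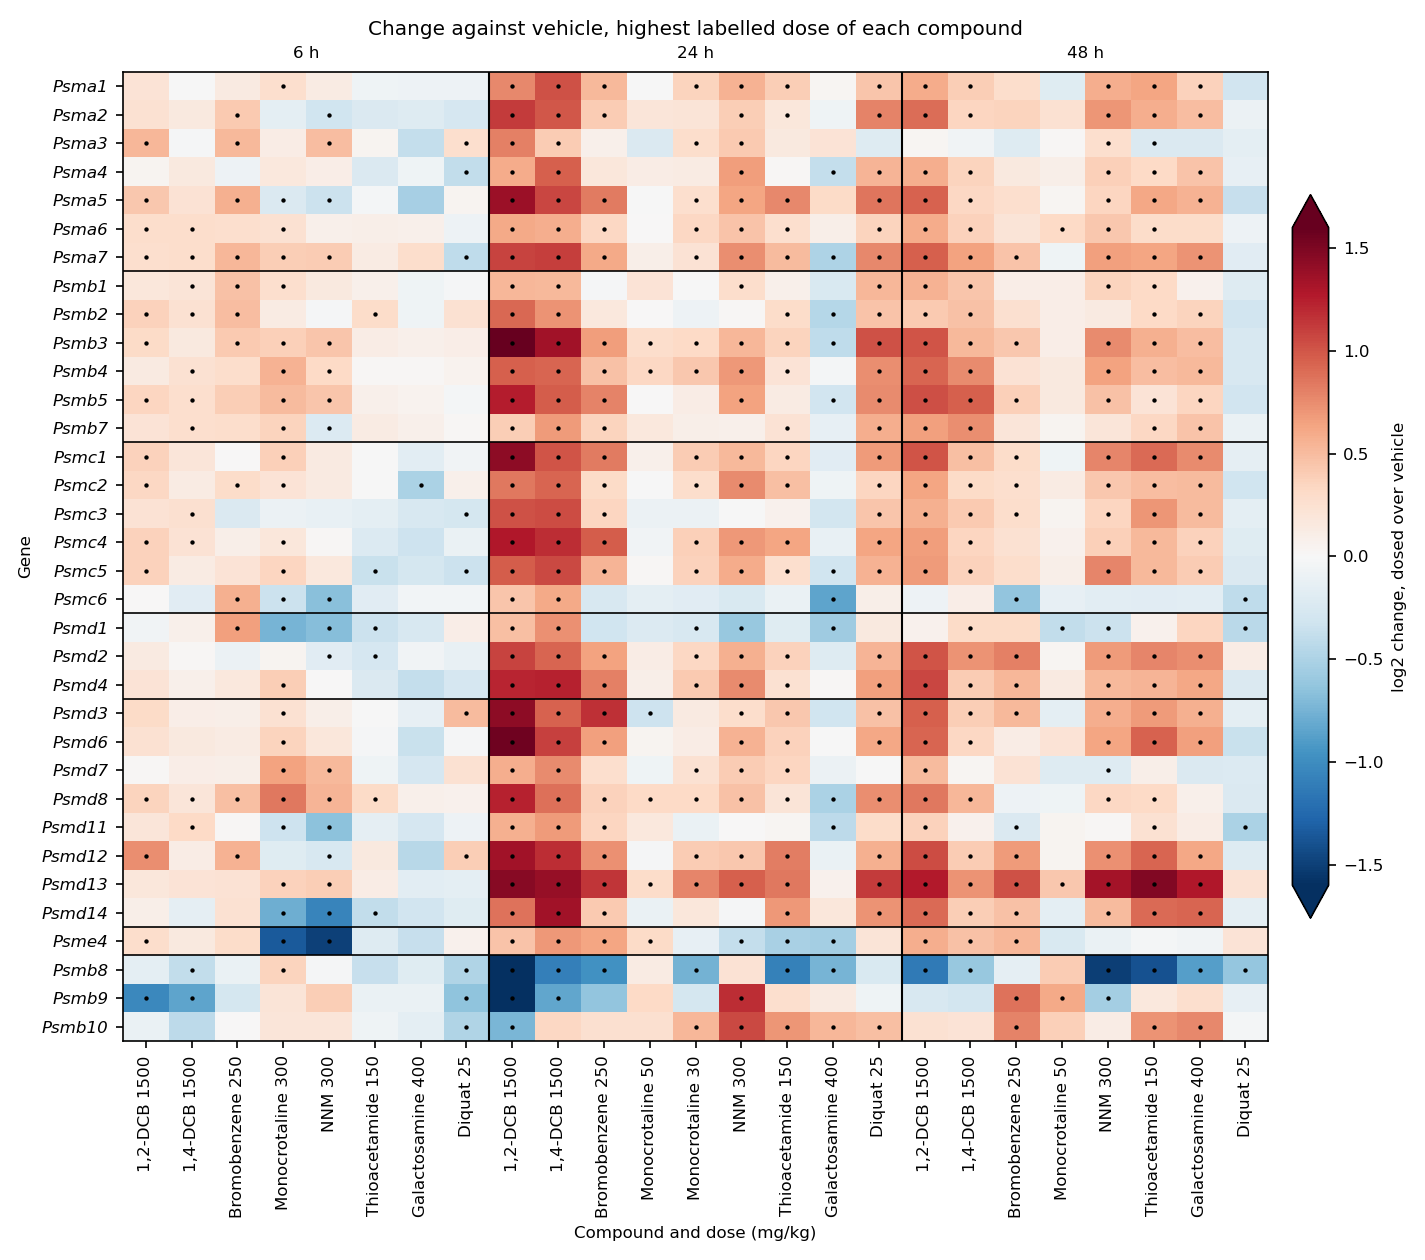
Log2 change against vehicle (colour, red higher and blue lower, saturated beyond the ends of the scale) of the 31 proteasome subunit genes and of Psmb8, Psmb9 and Psmb10 (rows, in blocks by part of the particle) at the highest labelled dose of each compound at 6, 24 and 48 h (columns; DCB is dichlorobenzene, NNM is N-nitrosomorpholine), with a dot where the change was called. At 24 h the columns of both dichlorobenzenes are red and dotted in all 31 rows, while Psmb8 and Psmb9 are blue.

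Psmb3, a beta ring subunit, rose most. Its levels were 14.43, 14.10, 14.37 and 14.34 in rats given 1500 mg/kg 1,2-dichlorobenzene, against 12.60, 12.58, 12.75 and 12.83 in vehicle rats. The rat-to-rat spread was a small part of this gap, and the log2 change was 1.62 ± 0.09 (SE, n = 4 each; limma adjusted p = 2.02e-18), a fold of 3.08. A near-copy gene, Psmb3l1, is annotated in rat, and the probe set could take up its transcript too. Psmd6, a subunit of the lid, had levels of 13.55, 13.03, 13.56 and 13.27 in dosed rats, against 11.75, 11.60, 11.93 and 11.92 in vehicle rats, a log2 change of 1.55 ± 0.14 (SE; limma adjusted p = 6.18e-13). Psmb5, the chymotrypsin-like proteolytic subunit and the main target of proteasome inhibitors, had levels of 13.90, 13.80, 13.87 and 13.90 in dosed rats, against 12.62, 12.61, 12.69 and 12.53 in vehicle rats. Its log2 change was 1.26 ± 0.10 (SE; limma adjusted p = 2.19e-14). The change of Psmb7, the trypsin-like subunit, was the smallest of the 31, at 0.39 ± 0.12 (SE; limma adjusted p = 0.00611).

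The counts differed with dose and time. At 24 h, 0 subunit genes were called after 15 mg/kg 1,2-dichlorobenzene and 28 after 150 mg/kg (14% of all genes were called higher), with a median change of 0.71. At 6 h, 17 were higher after 150 mg/kg (6.72% of all genes) and 14 after 1500 mg/kg (5.9%), with medians of 0.31 and 0.25. At 48 h, 0 were called after 150 mg/kg (1.85% of all genes in either direction), and 28 were higher after 1500 mg/kg (18.6%; median 0.68; centred count 23) in a group of 2 rats. At the higher doses the genes were thus called at 6 h already, and at 48 h only the 1500 mg/kg group still had a called member.

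**Figure D2:**
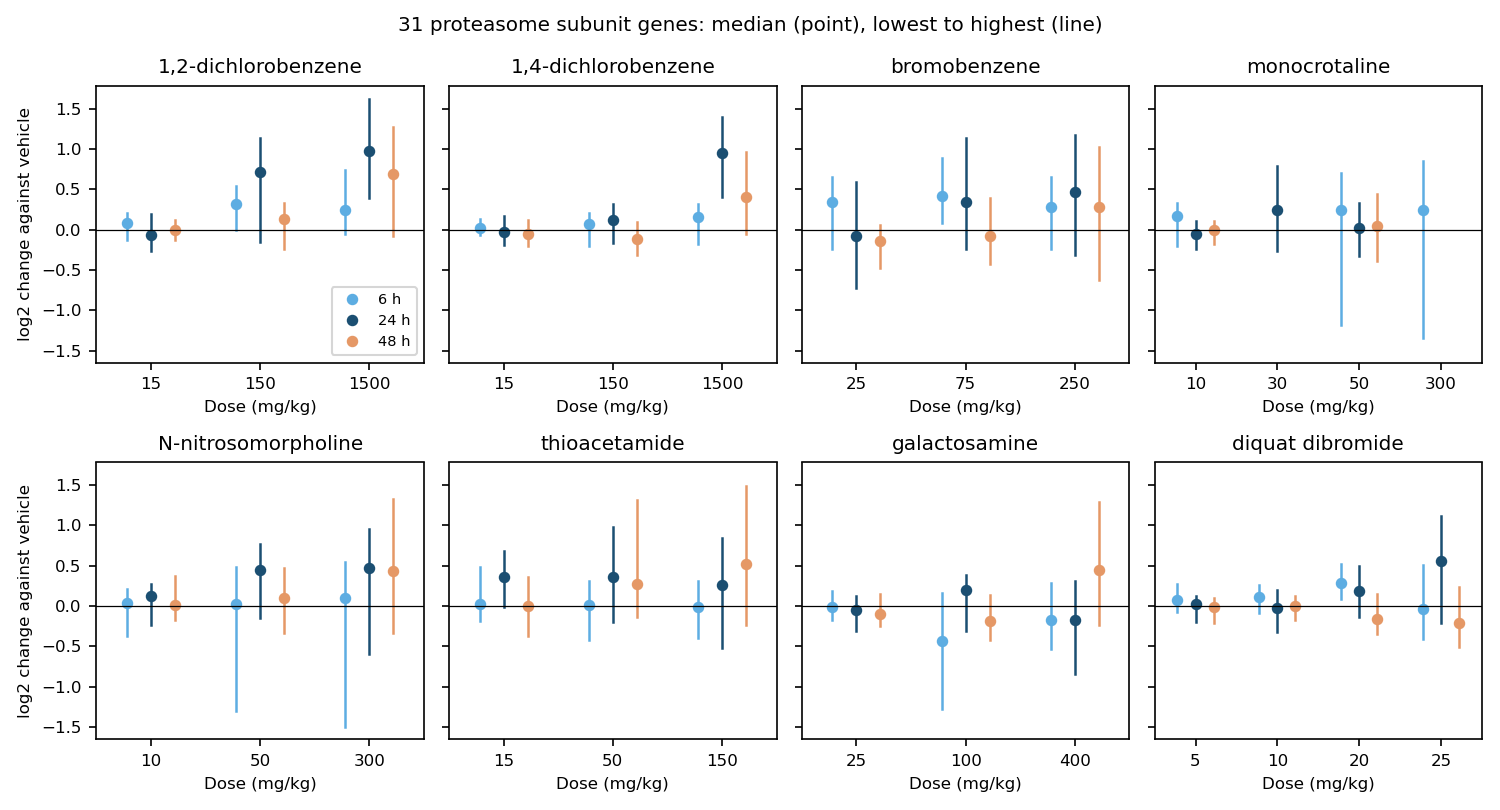
Log2 change against vehicle by dose (mg/kg, even spacing) for each compound at 6, 24 and 48 h (colours), as the median over the 31 proteasome subunit genes (point) and the lowest to highest gene (line). At 24 h the median after 1,2-dichlorobenzene is 0.71 at 150 mg/kg and 0.97 at 1500 mg/kg, and after 1,4-dichlorobenzene 0.12 and 0.95.

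Necrosis scores and the mean level over the 31 genes are described for 2 doses of 1,2-dichlorobenzene at 24 h, without a test within the group. After 150 mg/kg the mean was 12.72 in the rat that scored 1. It was 12.77 and 12.78 in the 2 rats that scored 2, and 12.83 in the rat that scored 3. There the rat with the highest score had the highest mean. After 1500 mg/kg the mean was 13.19 in the rat that scored 0 and 13.2 and 13.06 in the 2 rats that scored 1. It was 12.94 in the rat that scored 4, against 12.05 to 12.19 in vehicle rats. Here the rat with the highest score had the lowest mean of the 4 dosed rats, and all 4 lay above the vehicle range. The summed signal of 5 neutrophil markers was 230 to 39700 in dosed rats and 174 to 314 in vehicle rats, that of 6 macrophage markers 5630 to 19200 and 9180 to 11900, that of 3 endothelial markers 730 to 2040 and 3210 to 3610, that of 4 stellate cell markers 494 to 1040 and 4660 to 5960, that of 7 lymphocyte markers 153 to 556 and 285 to 383, and that of 7 hepatocyte markers 202000 to 228000 and 201000 to 235000. The part of these cell shifts in the result was not tested. In whole tissue, fewer cells of a type and less RNA per cell cannot be told apart.

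After 1,4-dichlorobenzene the same breadth of rise was seen at the highest dose alone. At 24 h all 31 genes were higher after 1500 mg/kg (18.6% of all genes), with a median of 0.95 and a range of 0.41 to 1.39, and every dosed rat lay above every vehicle rat for all 31 (17% of all genes). The largest changes were those of lid subunits. Psmd13 had levels of 11.97, 11.50, 11.82 and 11.84 in dosed rats, against 10.39, 10.51, 10.41 and 10.26 in vehicle rats, a log2 change of 1.39 ± 0.09 (SE; limma adjusted p = 2.01e-16). Psmd14, the deubiquitinase of the lid, had levels of 13.26, 12.90, 13.23 and 13.20 in dosed rats, against 11.54, 12.03, 11.85 and 11.78 in vehicle rats, a change of 1.35 ± 0.11 (SE; limma adjusted p = 1.8e-14). Neither gene overlapped between the groups. Psmb5 changed by 0.97 ± 0.09 (SE) and Psmb7 by 0.68 ± 0.09 (SE).

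The 4 dosed rats scored 1 for necrosis, and their neutrophil markers summed to 166 to 396, against 183 to 413 in vehicle rats. Stellate cell markers summed to 2310 to 3410, against 4830 to 5210 in vehicle rats, with 3 of the 4 called lower, and macrophage markers to 8090 to 9500, against 9080 to 12800, with 3 of the 6 called lower. Hepatocyte markers summed to 194000 to 220000, against 212000 to 280000, endothelial markers to 3810 to 5060, against 4170 to 4750, and lymphocyte markers to 302 to 369, against 273 to 518; their part in the result was not tested. At 6 h, 11 genes were higher after 1500 mg/kg (4.45% of all genes; centred count 19), with a median of 0.16. At 48 h, 27 were still higher (10.6%), with a median of 0.40, led by Psmb5 at 0.96 ± 0.09 (SE; limma adjusted p = 1.46e-11). At 15 and 150 mg/kg 0 of the 31 genes were called at any of the 3 times, with at most 2.9% of all genes called in either direction, and at 150 mg/kg and 24 h the median change was 0.12.

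The 2 dichlorobenzenes are isomers whose chlorines sit on neighbouring carbons of the ring (1,2) or on opposite ones (1,4), and their doses and times match. Their changes against their own vehicle rats were compared at 9 pairs of dose and time. The isomers differed most at the middle dose. At 150 mg/kg and 24 h, the change was larger after 1,2-dichlorobenzene for 21 of the 31 genes (8.64% of all genes) and smaller for 0, with a median difference of 0.56. Psmd3, a lid subunit, had levels of 11.45, 11.20, 11.15 and 11.14 in rats given 150 mg/kg 1,2-dichlorobenzene and 10.10, 10.15, 10.14 and 10.22 in rats given 150 mg/kg 1,4-dichlorobenzene, against vehicle means of 10.34 and 10.31. Its difference of changes was 1.06 (95% interval 0.75 to 1.37; limma adjusted p = 2.89e-07). Psmb5 differed by 0.64 (interval 0.38 to 0.90).

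At 1500 mg/kg and 24 h the isomers gave changes of like size. The median difference was 0.03, with 5 genes larger after 1,2-dichlorobenzene (8.32% of all genes) and 2 smaller (12.9%), centred 6 and 0. The 3 with the largest absolute difference were Psmd3, at 0.49 (95% interval 0.18 to 0.80; limma adjusted p = 0.015), Psmd14, at -0.48 (interval -0.81 to -0.15; adjusted p = 0.029), and Psmd6, at 0.46 (interval 0.13 to 0.79; adjusted p = 0.0377). The count of 5 rested on single rats: it fell to 1 without the second rat given 1500 mg/kg 1,4-dichlorobenzene, to 2 without the third rat given 1500 mg/kg 1,2-dichlorobenzene, and to 3 without the first of those rats, without the first vehicle rat of 1,2-dichlorobenzene or without the fourth of 1,4-dichlorobenzene. It was 0 when all 418 arrays entered 1 fit, with or without the hybridisation day as a block. For the other 24 genes the test did not show a difference, which does not show that the isomers act alike.

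Over the remaining pairs, 0 genes differed at 15 mg/kg at any of the 3 times (at most 0.141% of all genes in either direction), 6 differed at 150 mg/kg and 6 h (4.28% of all genes were larger after 1,2-dichlorobenzene), 2 at 1500 mg/kg and 6 h (2.79%), 1 at 150 mg/kg and 48 h (0.619%) and 14 at 1500 mg/kg and 48 h (11.5%), all larger after 1,2-dichlorobenzene. The 48 h count at 1500 mg/kg came from 2 rats given 1,2-dichlorobenzene, and centred it was 0 larger and 1 smaller. With the p adjusted over all genes and all 9 pairs together, the counts larger after 1,2-dichlorobenzene were 21 at 150 mg/kg and 24 h, 3 at 1500 mg/kg and 24 h, 6 (150 mg/kg) and 2 (1500 mg/kg) at 6 h, and 5 and 10 at 48 h.

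**Figure D3:**
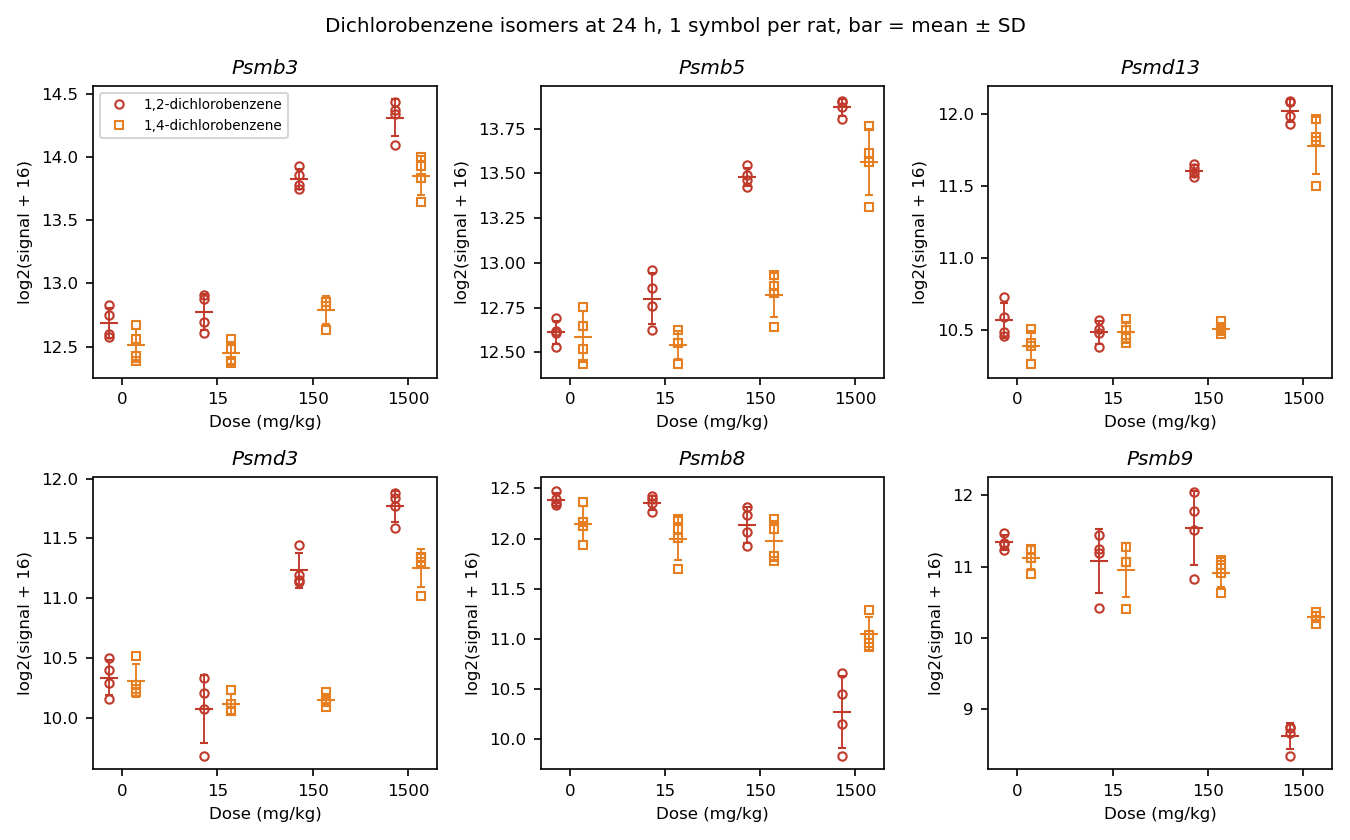
Log2(signal + 16) of Psmb3, Psmb5, Psmd13, Psmd3, Psmb8 and Psmb9 at 24 h by dose (mg/kg, 0 is vehicle) of 1,2-dichlorobenzene (circles) and 1,4-dichlorobenzene (squares), 1 symbol per rat, with bars for mean ± SD (n = 4). At 150 mg/kg the 4 rats given 1,2-dichlorobenzene lie above the 4 given 1,4-dichlorobenzene for Psmb3, Psmb5, Psmd13 and Psmd3.

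The immunoproteasome genes fell while the constitutive subunits rose. Psmb9 had levels of 8.35, 8.75, 8.67 and 8.74 in rats given 1500 mg/kg 1,2-dichlorobenzene at 24 h, against 11.48, 11.31, 11.24 and 11.32 in vehicle rats, and fell by 2.71 on the log2 scale (SE 0.19; limma adjusted p = 7.08e-16). Psmb8 had levels of 10.16, 9.83, 10.45 and 10.66 in dosed rats, against 12.48, 12.39, 12.36 and 12.33 in vehicle rats, and fell by 2.12 (SE 0.13; adjusted p = 8.4e-18). Psmb10 fell by 0.73 (SE 0.13; adjusted p = 4.52e-06). In none of these 3 genes did the groups overlap.

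At 6 h Psmb9 had already fallen after 1500 mg/kg of either isomer, by 1.03 after 1,2-dichlorobenzene (SE 0.19; limma adjusted p = 0.00013) and by 0.85 after 1,4-dichlorobenzene (SE 0.18; adjusted p = 0.00148). After 150 mg/kg 1,2-dichlorobenzene at 24 h, where 28 constitutive members were higher, Psmb8 and Psmb9 were not called (-0.25 and 0.20) and Psmb10 rose by 0.90 ± 0.13 (SE; adjusted p = 3.89e-07).

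The fall at 1500 mg/kg and 24 h differed between the isomers. After 1500 mg/kg 1,4-dichlorobenzene, Psmb8 fell by 1.09 and Psmb9 by 0.83, and Psmb10 changed by 0.33 without passing the test (limma adjusted p = 0.0862). The difference between isomers was -1.02 for Psmb8 (95% interval -1.39 to -0.66; adjusted p = 9.42e-06), -1.88 for Psmb9 (-2.42 to -1.35; adjusted p = 4.88e-08) and -1.06 for Psmb10 (-1.46 to -0.67; adjusted p = 1.92e-05). All 3 also passed with the p adjusted over the 9 pairs. Of 9 other interferon-induced genes measured, 7 were lower (20.9% of all genes) and 1 higher (22.3%) after 1,2-dichlorobenzene. After 1,4-dichlorobenzene 0 were called (18.6% of all genes were higher and 14.7% lower).

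Across the other compounds the 3 genes parted from each other. At 24 h Psmb8 fell after bromobenzene (by 0.97), monocrotaline labelled 30 mg/kg (by 0.75), thioacetamide (by 1.08) and galactosamine (by 0.74), whereas its changes after N-nitrosomorpholine (0.23), monocrotaline 50 mg/kg (0.13) and diquat dibromide (-0.24) were not called. Psmb9 was higher after N-nitrosomorpholine alone, with levels of 12.75, 12.41, 12.38 and 12.27 in dosed rats, against 11.58, 11.37, 11.12 and 11.00 in vehicle rats, a log2 change of 1.18 ± 0.18 (SE; limma adjusted p = 2.33e-07). Its other changes outside the dichlorobenzenes ran from -0.63 (bromobenzene) to 0.31 (monocrotaline 50 mg/kg), with none called. Psmb10 was higher after N-nitrosomorpholine (1.05), thioacetamide (0.71), galactosamine (0.53), monocrotaline labelled 30 mg/kg (0.53) and diquat dibromide (0.48), and its changes after bromobenzene (0.26) and monocrotaline 50 mg/kg (0.25) were not called. At 48 h after N-nitrosomorpholine Psmb8 was low as well, with levels of 10.84, 11.03, 11.08 and 10.77 in dosed rats, against 12.52, 12.64, 12.36 and 12.23 in vehicle rats, a fall by 1.51 (SE 0.14; limma adjusted p = 1.56e-12). Over the 74 dosed groups Psmb8 was higher in 1 and lower in 18, Psmb9 higher in 7 and lower in 8, and Psmb10 higher in 12 and lower in 3. This tally is not centred, and no share over all genes was computed for it. In 5 of the 7 comparisons at 24 h outside the dichlorobenzenes at least 6 of the 9 interferon-induced genes were higher, with 0 lower in each. These were all 9 after bromobenzene (23.5% of all genes were higher) and 8 each after N-nitrosomorpholine (27.2%) and monocrotaline labelled 30 mg/kg (25.8%). After thioacetamide 7 were higher (30.5%) and after galactosamine 6 (21.4%). After diquat dibromide 4 were higher (12%), and after monocrotaline 50 mg/kg 0 were called (6.07% of all genes were higher and 5.18% lower).

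**Figure D4:**
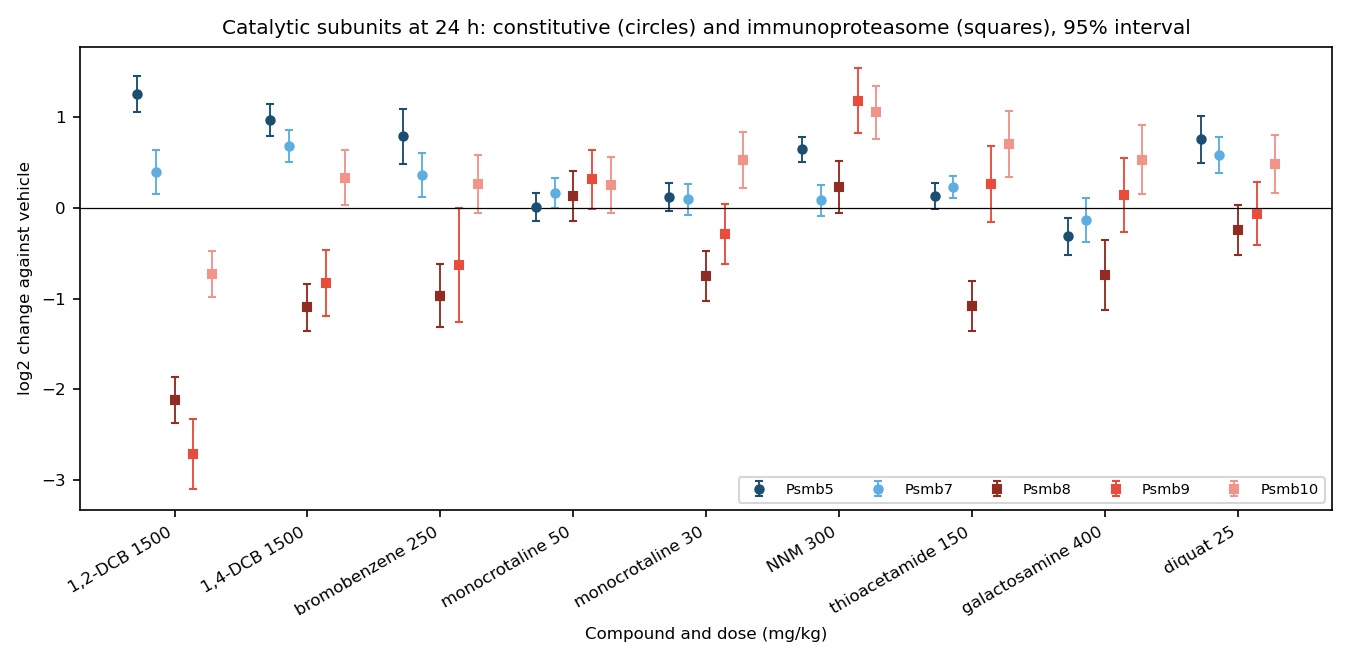
Log2 change against vehicle at 24 h, with its 95% interval, of the constitutive proteolytic subunit genes Psmb5 and Psmb7 (circles) and the immunoproteasome genes Psmb8, Psmb9 and Psmb10 (squares) in the 9 comparisons (columns, dose in mg/kg). After 1500 mg/kg 1,2-dichlorobenzene Psmb5 stands at 1.26 and Psmb9 at -2.71, and after N-nitrosomorpholine Psmb9 stands at 1.18.

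Bromobenzene, a monohalogenated benzene given at other doses, raised the genes early. At 6 h, 8 genes were higher after 25 mg/kg (2.67% of all genes), 21 after 75 mg/kg (8.09%) and 12 after 250 mg/kg (7.35%), with 0 lower. At 24 h after 250 mg/kg, 24 were higher and 0 lower (23.5% of all genes were higher), with a median of 0.47, but the centred counts were 12 higher and 2 lower. Psmd3 had levels of 11.13, 11.37, 11.02 and 10.63 in dosed rats, against 10.07, 9.32, 9.87 and 10.22 in vehicle rats, without overlap, a log2 change of 1.17 ± 0.17 (SE; limma adjusted p = 1.71e-07). Psmd13 had levels of 11.72, 11.52, 11.92 and 11.47 in dosed rats, against 10.59, 10.48, 10.39 and 10.61 in vehicle rats, a change of 1.14 ± 0.14 (SE; adjusted p = 4.96e-09). Psmb5 changed by 0.79 ± 0.15 (SE) and Psmb7 by 0.36 ± 0.12 (SE). The 7 members not called had changes down to -0.32.

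All 4 rats given 250 mg/kg bromobenzene scored 4 for necrosis. Their neutrophil markers summed to 30900 to 50100, against 393 to 525 in vehicle rats, macrophage markers to 29300 to 37700, against 12700 to 14600, and endothelial markers to 854 to 1070, against 3280 to 4630. Stellate cell markers summed to 652 to 1190, against 5100 to 5540, and lymphocyte markers to 991 to 1070, against 269 to 655; the part of these cells in the result was not tested. At 24 h after 75 mg/kg 14 genes were higher (10.4% of all genes; centred count 9) and 0 lower, and after 25 mg/kg 4 were higher (2.79%) and 3 lower (2.73%). At 48 h 13 were higher after 250 mg/kg (22.1%) and 2 lower (14%), centred 2 and 4, and 1 was lower after 25 mg/kg (0.0352%) and 1 after 75 mg/kg (0.471%).

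After N-nitrosomorpholine, an alkylating carcinogen once activated, subunits moved in both directions at 6 h and mostly up at 24 h. At 6 h after 300 mg/kg, 8 genes were higher (18.2% of all genes) and 10 lower (19.1%). The largest fall was that of Psme4, the ATP-independent activator PA200. Its levels were 9.85, 10.03, 9.92 and 10.57 in rats given 300 mg/kg, against 11.53, 11.82, 11.49 and 11.50 in vehicle rats, a fall by 1.49 on the log2 scale (SE 0.11; limma adjusted p = 9.3e-15). Psmd14 had levels of 11.31, 11.25, 11.05 and 11.38 in dosed rats, against 12.39, 12.36, 12.32 and 12.16 in vehicle rats, and fell by 1.06 (SE 0.09; adjusted p = 8.4e-13). The lid subunits Psmd8 and Psmd7 rose, by 0.54 and 0.52, so that subunits of one subcomplex moved apart. Centred, 14 were higher and 7 lower. After 50 mg/kg 5 were higher (16.9% of all genes) and 9 lower (16.4%), and after 10 mg/kg 2 were lower (4%).

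At 24 h after 300 mg/kg N-nitrosomorpholine, 23 genes were higher (27.2% of all genes) and 2 lower (18.9%), with a median of 0.47, and all 7 alpha ring genes were among the 23. Psmd13 had levels of 11.16, 11.23, 11.21 and 11.23 in dosed rats, against 10.20, 10.05, 10.42 and 10.34 in vehicle rats, a log2 change of 0.96 ± 0.09 (SE; limma adjusted p = 1.08e-12). Psmc2, an ATPase of the base, changed by 0.76 ± 0.07 (SE; adjusted p = 1.95e-12). Psmd1, the large scaffold subunit of the base, fell by 0.60 (SE 0.11; adjusted p = 8.09e-06). Psmb5 changed by 0.65 ± 0.07 (SE), and the change of Psmb7, 0.09 ± 0.08 (SE), was not called. The centred counts were 21 higher and 3 lower. Dosed rats scored 1 to 3, and their neutrophil markers summed to 1830 to 14500, against 233 to 351 in vehicle rats. Macrophage markers summed to 25200 to 38700, against 9890 to 13000, endothelial markers to 1540 to 2660, against 4070 to 4660, stellate cell markers to 1900 to 2790, against 4820 to 5820, and lymphocyte markers to 619 to 842, against 283 to 434; their part in the result was not tested. After 50 mg/kg 26 genes were higher and 0 lower (19.7% of all genes were higher). At 48 h after 300 mg/kg 24 were higher (30.1%) and 2 lower (19.3%), centred 13 and 5, led by Psmd13 at 1.33 ± 0.09 (SE). After 50 mg/kg at that time 6 were higher (10.4%) and 1 lower (6.92%), centred 1 and 2.

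Monocrotaline, a pyrrolizidine alkaloid, gave a similar split at 6 h. After 300 mg/kg 18 genes were higher (18.3% of all genes) and 6 lower (20.1%). Psme4 had levels of 10.23, 10.33, 10.08 and 9.94 in dosed rats, against 11.44, 11.53, 11.47 and 11.52 in vehicle rats, and fell by 1.34 (SE 0.09; limma adjusted p = 2.08e-15). Psmd14 fell by 0.78 and Psmd1 by 0.74, whereas Psmd8 rose by 0.85 ± 0.08 (SE; adjusted p = 2.47e-12). The 6 genes called lower (Psme4, Psmd14, Psmd1, Psmc6, Psmd11 and Psma5) are 6 of the 10 called lower 6 h after 300 mg/kg N-nitrosomorpholine, whose vehicle rats are others. Over all genes, 1904 were lower in both comparisons, 66.6% of those lower after monocrotaline and 70.2% of those lower after N-nitrosomorpholine, so the overlap is not read as particular to the subunits. Centred, 3 of the 6 were still called lower. After 50 mg/kg 19 were higher (17.5%) and 4 lower (17.7%), and after 10 mg/kg 1 was higher (1.77%). At 48 h 2 were higher (5.11%) and 1 lower (4.18%) after 50 mg/kg.

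At 24 h monocrotaline at 50 mg/kg gave 5 genes higher (6.07% of all genes) and 1 lower (5.18%), with a median of 0.02. Psmb4, a beta ring subunit, changed by 0.33 ± 0.08 (SE; limma adjusted p = 0.00286), Psmd8 by 0.32 ± 0.08 (SE; adjusted p = 0.00322) and Psmd3 by -0.33 ± 0.09 (SE; adjusted p = 0.007). The count of 5 fell to 2 without the third vehicle rat or the first dosed rat and to 3 without the second dosed rat. In the group labelled 30 mg/kg, 17 were higher (25.8%) and 1 lower (17.8%), with a median of 0.24, but centred 1 was higher and 6 lower. The 1 was Psmd13, with levels of 11.01, 11.00, 11.15 and 10.94 in dosed rats, against 10.22, 10.11, 10.27 and 10.35 in vehicle rats, a log2 change of 0.79 ± 0.10 (SE; adjusted p = 6.52e-09). Psmb4 changed by 0.43 ± 0.08 (SE) and Psmd1 by -0.26 ± 0.10 (SE). Psmb5 and Psmb7 were not called at either dose (0.12 and 0.10 labelled 30 mg/kg, 0.01 and 0.17 at 50 mg/kg). Neutrophil markers summed to 32500 to 67600 in the rats labelled 30 mg/kg, against 235 to 459 in vehicle rats, and macrophage markers to 30100 to 38400, against 10100 to 12200. Endothelial markers summed to 1270 to 1430, against 3850 to 4620, stellate cell markers to 2460 to 3840, against 5530 to 6770, and lymphocyte markers to 876 to 1330, against 459 to 532. In rats given 50 mg/kg the stellate cell markers summed to 3610 to 5160, below the same vehicle rats, and the other lists overlapped with vehicle. The part of these cells in the results was not tested.

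Thioacetamide is activated by oxidation of its sulfur. At 24 h most of the 31 genes were called higher at every dose, but after centring at 15 mg/kg alone. After 15 mg/kg 26 genes were higher and 0 lower (9.17% of all genes were higher; centred 24 higher), with a median of 0.36. After 50 mg/kg 25 were higher (28.3%) and 1 lower (18.3%), centred 13 and 3, and after 150 mg/kg 22 were higher (30.5%) and 1 lower (22.5%), centred 7 and 7; with the hybridisation day as a fixed block 11 were higher after 150 mg/kg. Psmd13 had levels of 11.08, 11.01, 10.94 and 11.02 in rats given 150 mg/kg, against 10.45, 9.93, 9.96 and 10.35 in vehicle rats, without overlap, a log2 change of 0.85 ± 0.10 (SE; limma adjusted p = 1.21e-09). Psmd12, a lid subunit, changed by 0.82 ± 0.09 (SE; adjusted p = 6.54e-11). Psme4 fell by 0.51 (SE 0.07; adjusted p = 8.26e-08). Psmb7 changed by 0.23 ± 0.06 (SE) and was called, and Psmb5 by 0.13 ± 0.07 (SE) and was not.

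All 4 rats given 150 mg/kg thioacetamide scored 4. Their 7 hepatocyte markers summed to 185000 to 198000, against 244000 to 296000 in vehicle rats, neutrophil markers to 5980 to 10600, against 218 to 351, and macrophage markers to 29700 to 36800, against 8440 to 11200. Lymphocyte markers summed to 1010 to 1240, against 361 to 511, stellate cell markers to 4620 to 5540, against 5220 to 6480, and endothelial markers to 3350 to 5090, against 3650 to 4620; their part in the result was not tested. At 48 h after 150 mg/kg, 26 were higher (36.1% of all genes) and 1 lower (21.4%), centred 8 and 8, and Psmd13 reached a change of 1.49 ± 0.10 (SE; limma adjusted p = 8.19e-17), with 11.41, 11.35, 11.50 and 11.42 in dosed rats, against 9.96, 10.07, 9.71 and 9.99 in vehicle rats. After 50 mg/kg 22 were higher (30.4%), but centred 2 were higher and 13 lower. After 15 mg/kg 2 were higher (5.53%) and 1 lower (3.37%), centred 1 and 3. At 6 h, with 2 vehicle rats, 3 genes were higher after 15 mg/kg (8.32% of all genes) and 0 lower, 2 higher (10.7%) and 4 lower (10.7%) after 50 mg/kg, and 2 higher (9.43%) and 4 lower (11.6%) after 150 mg/kg.

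Galactosamine traps uridine nucleotides in hepatocytes. At 6 and 24 h, more than 1 subunit gene was called lower only 6 h after 100 mg/kg and 24 h after 400 mg/kg. At 6 h after 100 mg/kg, 18 genes were lower (9.52% of all genes; centred count 12) and 0 higher, with a median of -0.44. Psmc6, an ATPase of the base, had levels of 10.76, 10.53, 11.19 and 11.14 in dosed rats, against 12.28, 12.20, 12.23 and 12.02 in vehicle rats, and fell by 1.28 on the log2 scale (SE 0.18; limma adjusted p = 2.06e-06). The groups did not overlap. After 400 mg/kg at the same time 1 gene was lower (4.46% of all genes), with Psmc6 at 12.51, 11.82, 12.07 and 12.12. The fall was thus not ordered by dose.

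At 24 h after 400 mg/kg galactosamine, 11 genes were lower (15% of all genes) and 0 higher, with a median of -0.18, and centred 16 were lower. The count was 6 after quantile normalization and 0 in a fit of these 8 arrays alone. Psmc6 had levels of 10.98, 11.91, 11.37 and 11.42 in dosed rats, against 12.42, 12.54, 11.85 and 12.25 in vehicle rats, a fall by 0.84 (SE 0.18; limma adjusted p = 0.000193), with 1 dosed rat above the lowest vehicle rat. Psmb5 fell by 0.31 (SE 0.10; adjusted p = 0.0124), and Psmb7, at -0.13 ± 0.12 (SE), was not called. The mean over the 31 genes was 11.88 in the dosed rat that scored 0 and 11.62 to 11.84 in the 3 that scored 2 or 3, against 11.88 to 12.01 in vehicle rats. After 25 and 100 mg/kg at 24 h 0 were called (at most 0.366% of all genes in either direction). At 48 h after 400 mg/kg 22 were higher and 0 lower (30.2% of all genes were higher), but centred 2 were higher and 5 lower. Psmd13 was among the genes higher either way, at 1.29 ± 0.17 (SE; adjusted p = 1.9e-08). Macrophage markers summed to 11900 to 45400 at 24 h in rats given 400 mg/kg, against 9520 to 11400 in vehicle rats, stellate cell markers to 5090 to 13400, against 4140 to 5650, neutrophil markers to 498 to 11400, against 297 to 1130, lymphocyte markers to 414 to 2420, against 252 to 430, and endothelial markers to 4210 to 6480, against 3390 to 4450; their part in the result was not tested.

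After diquat dibromide, a redox-cycling herbicide, the rise was seen at 24 h at the highest dose and was uneven between rats. At 24 h after 25 mg/kg, 25 genes were higher and 0 lower (12% of all genes were higher; centred 24 higher), with a median of 0.56. Psmd13 had a lowest level of 10.49, a median of 11.65 and a highest level of 11.88 in dosed rats, against 10.02, 10.19 and 10.73 in vehicle rats, a log2 change of 1.12 ± 0.17 (SE, n = 6 each; limma adjusted p = 4.97e-06). The lowest dosed rat lay below the highest vehicle rat. Psmb3 ran from 12.46 over a median of 13.77 to 14.29 in dosed rats, against 12.41, 12.48 and 12.56 in vehicle rats, a change of 1.02 ± 0.17 (SE; limma adjusted p = 1.17e-05). Psmb5 changed by 0.76 ± 0.13 (SE) and Psmb7 by 0.59 ± 0.10 (SE). The 6 members not called had changes down to -0.21. For 3 of the 31 genes every dosed rat lay above every vehicle rat (2.19% of all genes). With the hybridisation day as a fixed block the count was 4 in place of 25.

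The mean over the 31 genes was 11.99 and 12.11 in the 2 dosed rats that scored 0 for necrosis, and 12.52, 12.58, 12.80 and 12.50 in the 4 that scored 2 to 4, against 11.80 to 12.07 in vehicle rats. The 2 rats without necrosis had the lowest means of the 6, which is a description of 6 rats. Neutrophil markers summed to 284 to 15200 in dosed rats, against 246 to 337 in vehicle rats, macrophage markers to 10800 to 23800, against 10800 to 12300, stellate cell markers to 3280 to 6910, against 5440 to 7450, endothelial markers to 2390 to 4340, against 3210 to 4750, and hepatocyte markers to 199000 to 217000, against 215000 to 253000; their part in the result was not tested. At 6 h, 12 genes were higher after 20 mg/kg (5.54% of all genes), and 3 higher (10.3%) and 4 lower (16.1%) after 25 mg/kg. At 48 h after 25 mg/kg 0 were higher and 3 lower (3.08%), centred 16 lower. After 5 and 10 mg/kg 0 were called at any time (at most 3.43% of all genes in either direction).

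The 6 compounds given by gavage (both dichlorobenzenes, bromobenzene, monocrotaline, N-nitrosomorpholine and thioacetamide) are turned by liver enzymes into electrophiles. Their mean change at the highest labelled dose was set against the mean over galactosamine and diquat dibromide. At 24 h, 24 of the 31 genes had a larger change in the electrophile-forming compounds (10.6% of all genes) and 0 a smaller one, with a median difference of 0.39. The 3 largest were Psmd3 at 0.58 ± 0.10, Psma7 at 0.55 ± 0.10 and Psmc4 at 0.53 ± 0.08 (SE; limma adjusted p of 9.33e-07, 5.13e-07 and 2.7e-08). At 6 h, 19 were larger (10.4%) and 1 smaller (6.59%), and at 48 h 23 were larger (6.82%) and 0 smaller.

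At 24 h this difference rested on galactosamine. Set against galactosamine alone, 29 genes had a larger change (11.8% of all genes) and 0 a smaller one, with a median of 0.72. Set against diquat dibromide alone, 2 had a larger (10.6%) and 2 a smaller one (11.1%), with a median of -0.05. The differences at 6 and 48 h were not taken against each of these compounds alone. At 48 h the median change was 0.45 after 400 mg/kg galactosamine and -0.21 after 25 mg/kg diquat dibromide, so the 24 h result does not carry over to that time. The electrophile-forming compounds were given by gavage in corn oil and the other 2 compounds by injection in PBS, so route, vehicle and class cannot be told apart. The 8 compounds entered as fixed, and the p refers to rats and not to other compounds. Psmb8 and Psmb9 had smaller mean changes in the electrophile-forming compounds, by -0.32 ± 0.12 and -0.44 ± 0.17 (SE; limma adjusted p = 0.0414 and 0.0462). These means take in changes of -2.12 (Psmb8) and -2.71 (Psmb9) after 1,2-dichlorobenzene, whereas Psmb9 changed by 1.18 after N-nitrosomorpholine. The compounds of the class thus did not move alike, and the difference without 1,2-dichlorobenzene is not given for these genes.

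**Figure D5:**
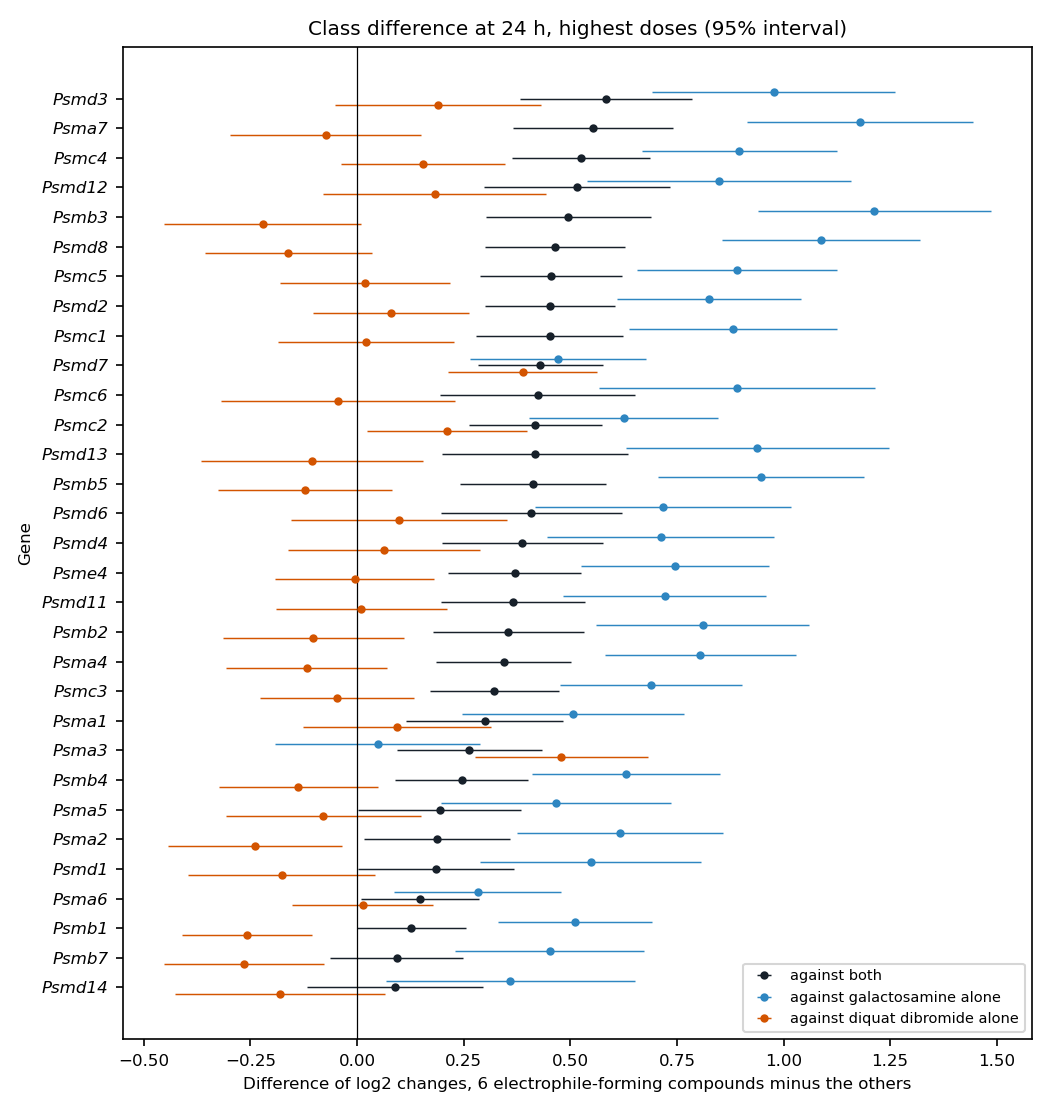
Difference of log2 changes at 24 h, with its 95% interval, between the 6 electrophile-forming compounds and galactosamine and diquat dibromide together (black), galactosamine alone (blue) and diquat dibromide alone (orange), for each of the 31 genes (rows, by the black value). The orange points lie around 0 (median -0.05) and the blue points to the right (median 0.72).

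Within groups of the same compound, dose and time, rats scored 1 or more for necrosis were set against rats scored 0 over all 418 arrays. Of the 31 genes 11 were higher (16.6% of all genes) and 1 lower (14.4%), with a median of 0.06. The largest were Psmd13 at 0.17 ± 0.04, Psmb3 at 0.16 ± 0.04 and Psmd6 at 0.15 ± 0.04 (SE; limma adjusted p of 0.000243, 7.04e-05 and 0.000771), and Psmc6 fell by 0.11 (SE 0.04; adjusted p = 0.0344). Without the diquat dibromide arrays 0 of the 31 were called, and centred 3 were higher and 2 lower.

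The subunits did not move as one. Over the 74 dosed groups at least 16 of the 31 genes were higher in 21 groups, 0 were called in 27, and more were lower than higher in 12. These tallies and those by gene below are not centred, and no share over all genes was computed for them. Centred, several of the 21 groups fell under 16 higher genes. The count went from 17 to 1 after monocrotaline labelled 30 mg/kg at 24 h. At 48 h it went from 22 to 2 after 50 mg/kg thioacetamide and after 400 mg/kg galactosamine. At 6 h after 1500 mg/kg 1,4-dichlorobenzene it went from 11 to 19. Psmd8, Psmd12 and Psmd13, all of the lid, were each higher in 28 groups, and Psmd13 was lower in 0. Psmb3 and Psmc2 were higher in 27. At the other end, Psmd1 was higher in 6 groups and lower in 15, Psmc6 higher in 4 and lower in 8, Psme4 higher in 13 and lower in 10, and Psmd11 higher in 12 and lower in 9. Psme4 was measured by 3 probe sets that disagreed: after 1,2-dichlorobenzene at 24 h the chosen one changed by 0.46 and another by -1.67. Psmb5 had 2 further probe sets with mean levels of 5.14 and 5.43, close to the offset, and its change after diquat dibromide was -0.05 when all 3 were averaged.

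Pearson's r was computed over all 418 arrays, each taken relative to the vehicle mean of its compound and time. Over the 465 pairs of members it had a median of 0.65 and ran from -0.18 to 0.90. With the mean of the other members, Psmc4 had the highest r (0.92) and Psme4 the lowest (0.29). Outside the list, the 10 genes most like the mean of the 20S and 19S genes were Usp14, a deubiquitinase that docks on the base (0.89), Ube2k, a ubiquitin-conjugating enzyme (0.84), Nsfl1c, the p97 cofactor p47 (0.83), Cct6a, a chaperonin subunit (0.83), Rab5if (0.82), Ahsa1, an Hsp90 co-chaperone (0.82), Znrd2 (0.82), Mrps18b, a mitochondrial ribosomal protein (0.82), Creb3, a transcription factor bound to the endoplasmic reticulum (0.81), and Nmt1, an N-myristoyltransferase (0.81). These are descriptions over arrays that share doses and scaling.

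Other genes of the pathway were counted over the 9 comparisons at 24 h. In each of these, 6.07% to 30.5% of all genes were called higher and 5.18% to 22.5% lower. The tallies here, those of the regulators below and those of the cell markers above are not centred. No share over all genes was computed for a tally over the 9 comparisons. Of the proteins bound to the 19S particle, Usp14 was higher in 8 of 9 (0.07 to 1.94) and Uchl5, another deubiquitinase, in 6, with 0 lower. Zfand2a (AIRAP), a stress-induced proteasome partner, was higher in 8, with changes up to 6.66 after 1,2-dichlorobenzene, and Zfand5, a proteasome activator, was higher in 7 (highest 2.13). Ufd1, which brings ubiquitinated proteins to p97, was higher in 7, and p97 itself (Vcp) higher in 5 and lower in 2. Among the assembly chaperones Pomp was higher in 6 and Psmd5 in 5, with 0 lower, whereas Psmg1 was lower in 7 and higher in 0. Psme2, of the interferon-inducible PA28 activator, was higher in 6 and lower in 0, whereas its partner gene Psme1 was higher in 3 and lower in 2. Other genes of these lists differed in direction. Sqstm1 was higher in 4 and lower in 4, and Rad23b and Uba1 were each higher in 2 and lower in 2. Psmf1, Psmd9 and Ubqln1 were each higher in 1 and lower in 4. Sem1, Psmd10 and Nploc4 were each higher in 5 and lower in 0. Adrm1 was higher in 4 and lower in 1, and Psmg3 higher in 3 and lower in 1. Psmg2 was higher in 2 and lower in 0, and Psmg4 higher in 1 and lower in 2.

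Among the regulators, the mRNA of Nfe2l1 was called in 0 of 9 comparisons (-0.20 to 0.45). Nfe2l2 was higher in 5 and lower in 0, and its changes after both dichlorobenzenes, where all 31 members rose, were 0.22 and 0.10 and were not called. Ngly1 and Ddi2, which process NRF1 into its active form, were lower in 8 and 6 comparisons and higher in 0. Ngly1 changed by -1.17 after 1,2-dichlorobenzene, -0.54 after 1,4-dichlorobenzene and -1.63 after bromobenzene. Keap1, which holds NRF2 back, was higher in 1 and lower in 4. These are mRNA levels, and the NRF1 and NRF2 proteins were not measured. The part of these regulators in the subunit changes was not tested.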

How the data were processed

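Liver RNA of 418 rats was hybridised on Affymetrix rat arrays, 1 rat per array. The authors deposited log2 MAS5 signals of 31099 probe sets, scaled so that the trimmed mean signal of each array was 500. Which MAS5 release they ran was not given in the sources used here. The deposited log2 values were turned back into signals, 16 was added and log2 was taken again, so that changes of dim genes are understated. 20826 probe sets had 1 gene symbol, 436 several and 9780 none, and 57 were controls; keeping for each gene its brightest probe set (highest mean) left 14217 genes. Groups came from the sample labels, and each rat is a separate animal. Replicate numbers only name rats. Arrays give no counts, so their number limits the precision.

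Each compound was fitted with limma 3.58.1 in R 4.3.3, with 1 coefficient per group and a trended prior; differences between isomers used both dichlorobenzenes, and class and necrosis tests all arrays. Benjamini-Hochberg adjustment ran over all genes. The steps were tested on simulated data. Other normalizations, probe set rules, offsets, sample sets, day blocks and left-out rats were tried. In each 24 h comparison the 2 called members with the largest rise, the 1 with the largest fall and the catalytic genes were to be named; for differences, the 3 with the largest absolute value; the members with the lowest and highest correlation; and the 10 most alike other genes. Other members and times named were chosen after their values were seen. The members and lists were chosen with earlier results of these data known. Promoters came from RefSeq (GRCr8).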

Additional observations from a re-analysis of the deposited data

Results flagged for a closer look

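Within the 143 sets of 4 to 6 rats examined, 6 held a rat far from the others, and chance alone gives about 1 in 20 such sets. Psmb8 was 11.39 in the second rat given 250 mg/kg bromobenzene, below the nearest rat at 11.98. It was 12.38 in the second rat given 400 mg/kg galactosamine, above the nearest at 11.31, and that rat was the one scored 0 for necrosis. Psmb9 was 11.99 in the fourth vehicle rat of monocrotaline at 24 h (nearest 11.34), and Psmb5 was 12.37 in the third vehicle rat of thioacetamide (nearest 12.55). In the sixth vehicle rat of diquat dibromide at 24 h, Psmd13 was 10.73 (nearest 10.23) and the mean over the 31 genes was 12.07 (nearest 11.89).

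The change against vehicle differed between the dichlorobenzene isomers, by the test of the difference itself, for 6 members at 150 mg/kg and 2 at 1500 mg/kg at 6 h, for 21 at 150 mg/kg at 24 h, for 5 larger after 1,2-dichlorobenzene at 1500 mg/kg at 24 h, and for 1 and 14 at 48 h. It differed between the electrophile-forming compounds and the other 2 for 19 members at 6 h, 24 at 24 h and 23 at 48 h, larger in the electrophile-forming compounds.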

How the results depend on the processing

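Of the counts of called members under other settings (rats left out apart), 127 stayed within 1.5 times the reported count and 19 did not. Quantile normalization gave 6 lower genes after galactosamine and 21 higher genes in the necrosis test. Centring each array on its median gave 12 after bromobenzene, 1 after monocrotaline labelled 30 mg/kg, 7 after thioacetamide and 3 in the necrosis test. With all arrays in 1 fit, 2 were higher after monocrotaline 50 mg/kg and 0 differed between the isomers. With only the 2 groups compared, the counts were 3 after monocrotaline 50 mg/kg and 0 lower after galactosamine. The hybridisation day as a random block gave 2 after monocrotaline 50 mg/kg. As a fixed block it gave 0 after monocrotaline 50 mg/kg, 11 after thioacetamide, 4 after diquat dibromide and 0 between the isomers, and the median standard error for diquat dibromide was 0.170 in place of 0.124. Without galactosamine the class difference at 24 h held 2 genes. The necrosis test gave 17 with the score as a number, 27 with compound and time as the block, and 0 without diquat dibromide. The cause of these shifts was not tested.

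Leaving out 1 rat at a time gave 30 to 31 genes for 1,2-dichlorobenzene, 31 to 31 for 1,4-dichlorobenzene, 20 to 25 for bromobenzene, 2 to 5 for monocrotaline 50 mg/kg, 15 to 19 for monocrotaline labelled 30 mg/kg, 23 to 23 for N-nitrosomorpholine, 19 to 22 for thioacetamide, 8 to 14 for galactosamine, 23 to 26 for diquat dibromide, 1 to 7 for the isomer difference and 23 to 27 for the class difference.

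Among single genes the sign turned only where the change was not called under the other setting. Psmb7 after galactosamine was 0.10 with quantile normalization. Centring gave Psmb5 -0.10 and Psmb7 -0.13 after monocrotaline labelled 30 mg/kg, Psmb7 -0.069 after N-nitrosomorpholine, Psmb5 -0.14, Psmb7 -0.036 and Psmb9 -0.0051 after thioacetamide, and Psmb9 -0.11 after galactosamine. Averaging all probe sets gave Psmb5 -0.12 and -0.036 after monocrotaline 50 mg/kg and labelled 30 mg/kg, -0.037 after thioacetamide and -0.051 after diquat dibromide. Psmb5 after monocrotaline 50 mg/kg was -0.010 with the day as a random block, -0.083 as a fixed block, and ran from -0.026 to 0.070 without single rats. Psma7 was -0.073 in the class difference without galactosamine.

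No paired analysis was possible because the labels give the rats no replicate numbers that could pair them across groups. Leaving out the 8 arrays with the fewest dim probe sets, a setting chosen after seeing the data, kept every count within 1.5 times. Rats were not left out in turn at 6 and 48 h. A class comparison within 1 route was not run, since each route held 1 class.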
